A study of Homo sapiens with 4 samples.

Results

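ATF4 and the genes of the amino acid stress response were followed in BT474 cells by single-cell RNA-seq. The set held 30 genes of the 33538 in the count matrix, taken by symbol from a list of pathway genes. The list was drawn up with earlier results of these data known, although its rule uses no measured value. They fell into 6 serine and one-carbon enzymes, 3 enzymes of asparagine, alanine and phosphoenolpyruvate (PEP) synthesis, 5 amino acid transporters, 5 genes of tRNA charging and tRNA export, and 11 stress regulators and effectors. All 30 symbols were found once each, and 28 reached a mean of at least 1 CPM (UMIs, unique molecular identifiers, summed over the cells of a library and scaled to a common total per library). ALDH1L2 and CHAC1 were below that level and entered no count of measured members.

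ATF4 is a transcription factor of the integrated stress response. Kinases that sense amino acid shortage (GCN2), endoplasmic reticulum stress (PERK), double-stranded RNA (PKR) or heme shortage (HRI) phosphorylate the initiation factor eIF2α, which lowers general translation while the ATF4 message is translated more. ATF4 then pairs with C/EBP proteins on composite elements and raises genes for amino acid synthesis, uptake and tRNA charging, together with feedback and death genes such as TRIB3 and DDIT3. In growing cells mTORC1 also raises ATF4 output, so that many of these genes are used in tumour cells without an acute stress.

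BT474 is an established breast cancer line with estrogen receptor and amplified HER2, grown per the labels in RPMI medium with fetal bovine serum. One library each was made after 4 h of both drugs together, 200 nM neratinib (which blocks the HER2, EGFR and HER4 kinases covalently), 100 nM fulvestrant (an estrogen receptor antagonist and degrader), or the vehicle DMSO. All 4 groups are the same line, with no genetic difference named in the labels. Each group was 1 library, so no ratio below has a replicate check and no difference was tested. Square brackets hold 95% intervals from the exact binomial on Poisson counts, which cover counting error only. A gene is called higher where its level was at least 25% above that of the library it is set against, and lower where it was at least 20% below (0.32 either way on the log2 scale), with the interval off 0.

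The promoters of the members were first searched for the C/EBP-ATF response element, the composite site on which ATF4 and C/EBP proteins bind, as TGATGNAA on either strand (TTNCATCA on the other). The RefSeq table (GRCh38.p14) held 23 of the 30 genes with 37 promoters, each 250 bases before to 50 bases after a gene start, and AARS, SARS, GARS and WARS were matched there under AARS1, SARS1, GARS1 and WARS1. The element was present in 8 of the 37 promoters (21.6%), which belong to 8 of the 23 genes (34.8%). Over the whole table it was present in 1270 of 35116 promoters (3.62%), which belong to 1217 of 27305 genes (4.46%). The holders were CHAC1, CEBPG, SLC7A1, GARS, AARS, SLC1A5, SLC3A2 and ASNS. A match of letters is a description of sequence and not a bound site, and no match says only that these letters are not in the window. The 6 holders with the greatest absolute log2 ratio for neratinib against DMSO, all below 0, are printed below. They run 5′ to 3′ on the strand of the gene, with the element in capitals.
CHAC1: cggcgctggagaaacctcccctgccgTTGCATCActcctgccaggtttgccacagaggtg
CEBPG: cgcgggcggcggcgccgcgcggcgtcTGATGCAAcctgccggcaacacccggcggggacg
SLC7A1: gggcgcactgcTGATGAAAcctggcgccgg
GARS: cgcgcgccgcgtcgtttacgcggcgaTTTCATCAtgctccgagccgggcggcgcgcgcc
AARS: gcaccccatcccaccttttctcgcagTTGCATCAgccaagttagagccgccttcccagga
SLC1A5: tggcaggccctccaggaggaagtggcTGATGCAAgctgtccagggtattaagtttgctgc

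The CHAC1 window is chr15:40953236-40953295 on the plus strand, and its element begins 209 bases before the annotated start. The CEBPG window is chr19:33374045-33374104 (plus strand, 42 bases before the start), and the GARS window is chr7:30594819-30594877 (plus strand, 33 bases before). The AARS window is chr16:70289660-70289719 (minus strand, 187 bases before), and the SLC1A5 window is chr19:46784878-46784937 (minus strand, 97 bases before). The SLC7A1 window is chr13:29595663-29595692 on the minus strand, and its element begins 7 bases after the first transcribed base. CEBPG and SLC1A5 carry the letters TGATGCAA, and CHAC1 and AARS carry the same letters read from the other strand. SLC7A1 and GARS carry the TGATGAAA form, GARS on the other strand.

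The libraries held 3876 cells with both drugs, 3507 with neratinib, 3485 with fulvestrant and 4301 with DMSO, at 82967775 to 102504452 UMIs per library in cells and medians of 22007 to 23010 UMIs per cell. Of the 15146 distinct cell barcode sequences, 23 occurred in more than 1 library. All 9 markers of the line were detected in each library, ERBB2, GRB7, KRT8, KRT18, KRT19 and EPCAM at 218.2 to 2893 CPM, GATA3 at 134.8 to 284.2, PGR at 81.5 to 172.8 and ESR1 at 11.9 to 18.2. For neratinib against DMSO 5 of the 9 were lower and 1 higher, with a median log2 ratio of −0.43. Of 14 fibroblast, immune and endothelial markers, COL1A2, PDGFRB and CD3E had no UMI, PTPRC had at most 0.011 CPM and COL1A1 had 10.2 to 12.4 CPM. The median mitochondrial share of a cell's UMIs was 21.1% with both drugs, 21.1% with neratinib, 16.7% with fulvestrant and 16.2% with DMSO. Small ratios are read against the shift of the median gene (log2). This was −0.16 for neratinib against DMSO and −0.15 for the double treatment against either DMSO or fulvestrant. It was 0.00 for fulvestrant against DMSO and 0.01 for the double treatment against neratinib.

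Most of the set was lower with neratinib against DMSO after 4 h. Among them were the regulators TRIB3, CEBPB, CEBPG and DDIT3, the tRNA synthetases and 4 of the 5 amino acid transporters (3 on top of fulvestrant). The serine synthesis enzymes other than PSAT1 were not lower. The 30 genes together took 0.167% of UMIs with both drugs, 0.164% with neratinib, 0.197% with fulvestrant and 0.199% with DMSO. For neratinib against DMSO, 17 of 28 measured members were lower and 2 higher, where 33.3% of all measured genes were lower and 13.6% higher. The median log2 ratio of the members was −0.45, against −0.16 over all 12136 measured genes. For both drugs against fulvestrant, the pair that shares no library with it, 16 members were lower and 3 higher, where 32.4% of all genes were lower and 13.8% higher, with medians of −0.38 and −0.15. Under median-of-ratios scaling, 16 members were lower and 2 higher for neratinib against DMSO, beside 25.1% of all genes lower and 17.8% higher. For both drugs against fulvestrant that scaling gave 12 lower and 3 higher, beside 25.5% and 17.8%. Among cells with at most 20% mitochondrial UMIs this pair had 11 lower and 3 higher, beside 27.9% and 14.2%. Its medians were then −0.23 for the members and −0.11 for all genes. Over all cells and without that scaling, both drugs against DMSO gave 16 lower and 3 higher members beside 33.3% and 14.9% of all genes. This pair shares its libraries with the other comparisons.

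**Figure D1:**
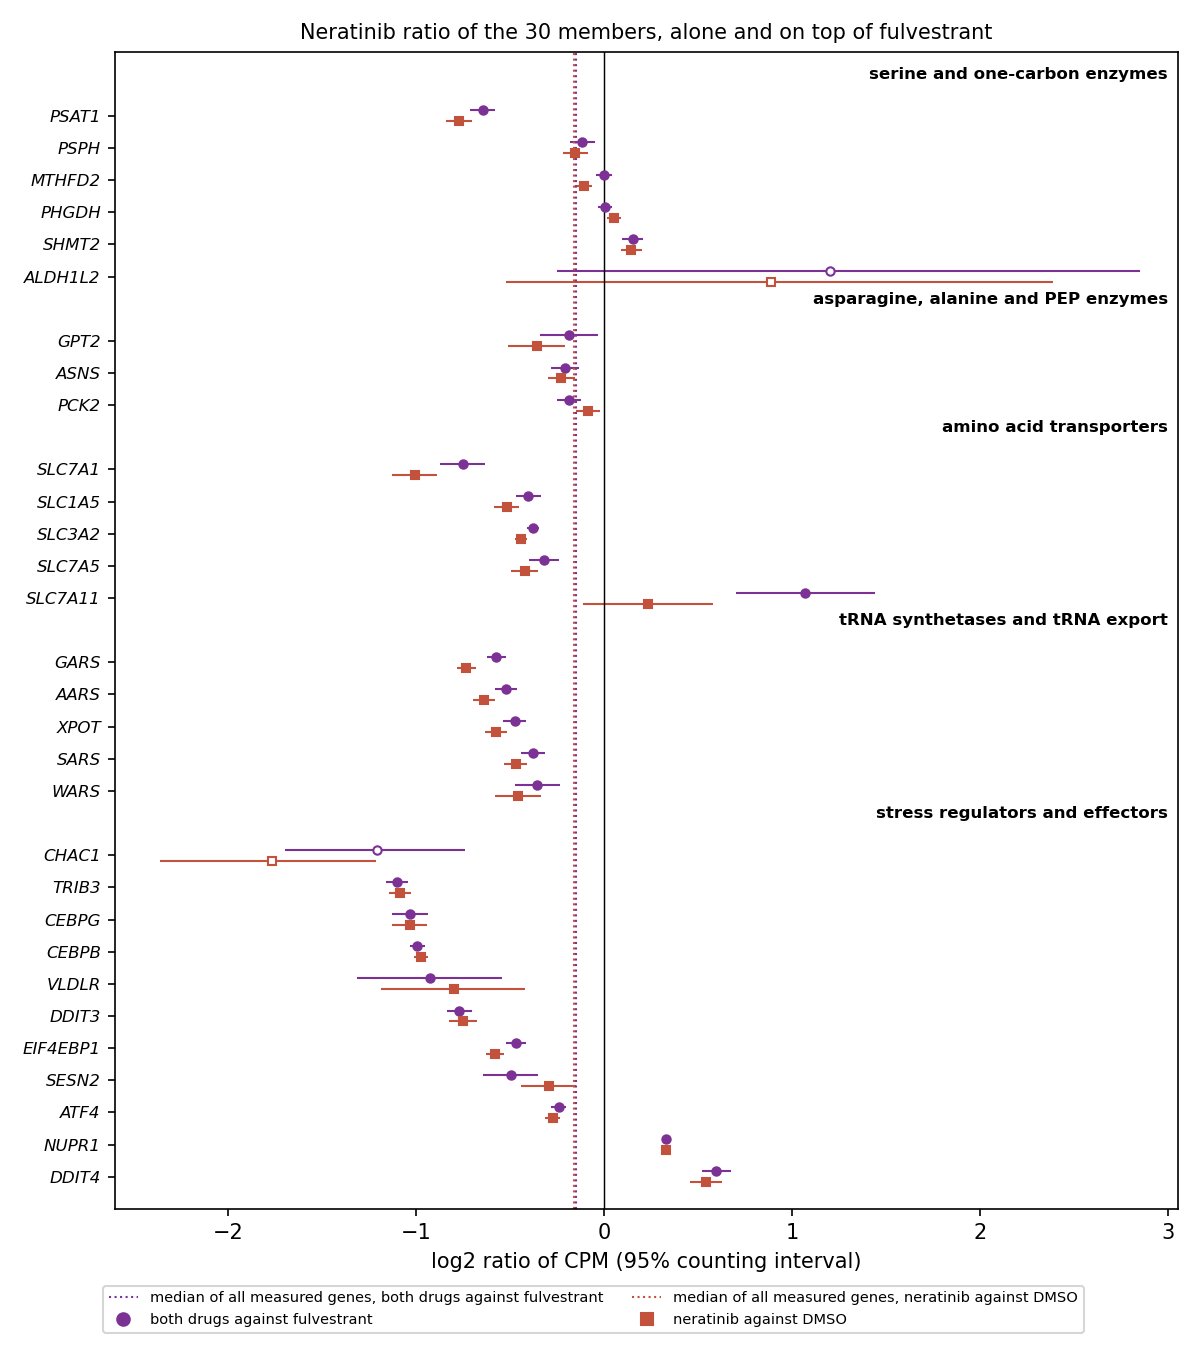
Log2 ratios of CPM of the 30 members by role (x axis; bars are 95% counting intervals), for both drugs against fulvestrant (circles) and neratinib against DMSO (squares); open symbols mark ALDH1L2 and CHAC1, below a mean of 1 CPM, and dotted lines mark the median gene. All 5 tRNA genes lie left of the median gene in both pairs, PHGDH and SHMT2 lie right of it, and NUPR1 and DDIT4 lie right of 0.

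Among the regulators, the pseudokinase TRIB3, which binds ATF4 and restrains it, had 37.5 CPM with both drugs, 38.4 with neratinib, 80.6 with fulvestrant and 81.5 with DMSO. The level was thus low in both libraries that contain neratinib and high in both that do not. The log2 ratio was −1.09 [−1.15, −1.03] for neratinib against DMSO (2.12-fold lower) and −1.10 [−1.16, −1.04] for both drugs against fulvestrant.

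CEBPB, a C/EBP factor with many roles in mammary and inflammatory transcription, had 90.0 CPM with both drugs, 93.4 with neratinib, 179.2 with fulvestrant and 183.6 with DMSO. CEBPG, a C/EBP protein that pairs with ATF4, had 15.2 CPM with both drugs, 15.9 with neratinib, 31.2 with fulvestrant and 32.5 with DMSO. Both genes split the libraries by neratinib. Against DMSO, the neratinib library was 1.96-fold lower for CEBPB (−0.97 [−1.01, −0.94]) and 2.05-fold lower for CEBPG (−1.04 [−1.13, −0.94]). On top of fulvestrant the ratios were −0.99 [−1.03, −0.95] for CEBPB and −1.03 [−1.13, −0.94] for CEBPG.

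DDIT3, which encodes the death-linked factor CHOP, had 32.2 CPM with both drugs, 27.6 with neratinib, 55.0 with fulvestrant and 46.4 with DMSO. It was lower with neratinib in both pairs, at −0.77 [−0.84, −0.70] on top of fulvestrant and −0.75 [−0.82, −0.68] against DMSO. Both fulvestrant libraries lay above their partner without fulvestrant, at 0.25 [0.19, 0.30] against DMSO and 0.23 [0.15, 0.31] against neratinib, sizes below the call. Among cells with under 15% mitochondrial UMIs DDIT3 was not lower on top of fulvestrant (0.10 [−0.09, 0.29]), and both drugs stood at 0.44 [0.25, 0.63] against DMSO. ATF4 itself had 108.4 CPM with both drugs, 106.0 with neratinib, 128.2 with fulvestrant and 128.1 with DMSO, a ratio of −0.27 [−0.31, −0.23] for neratinib against DMSO, or 1.21-fold, under the size called. These are message levels, and ATF4 is known to be set mainly by translation.

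**Figure D2:**
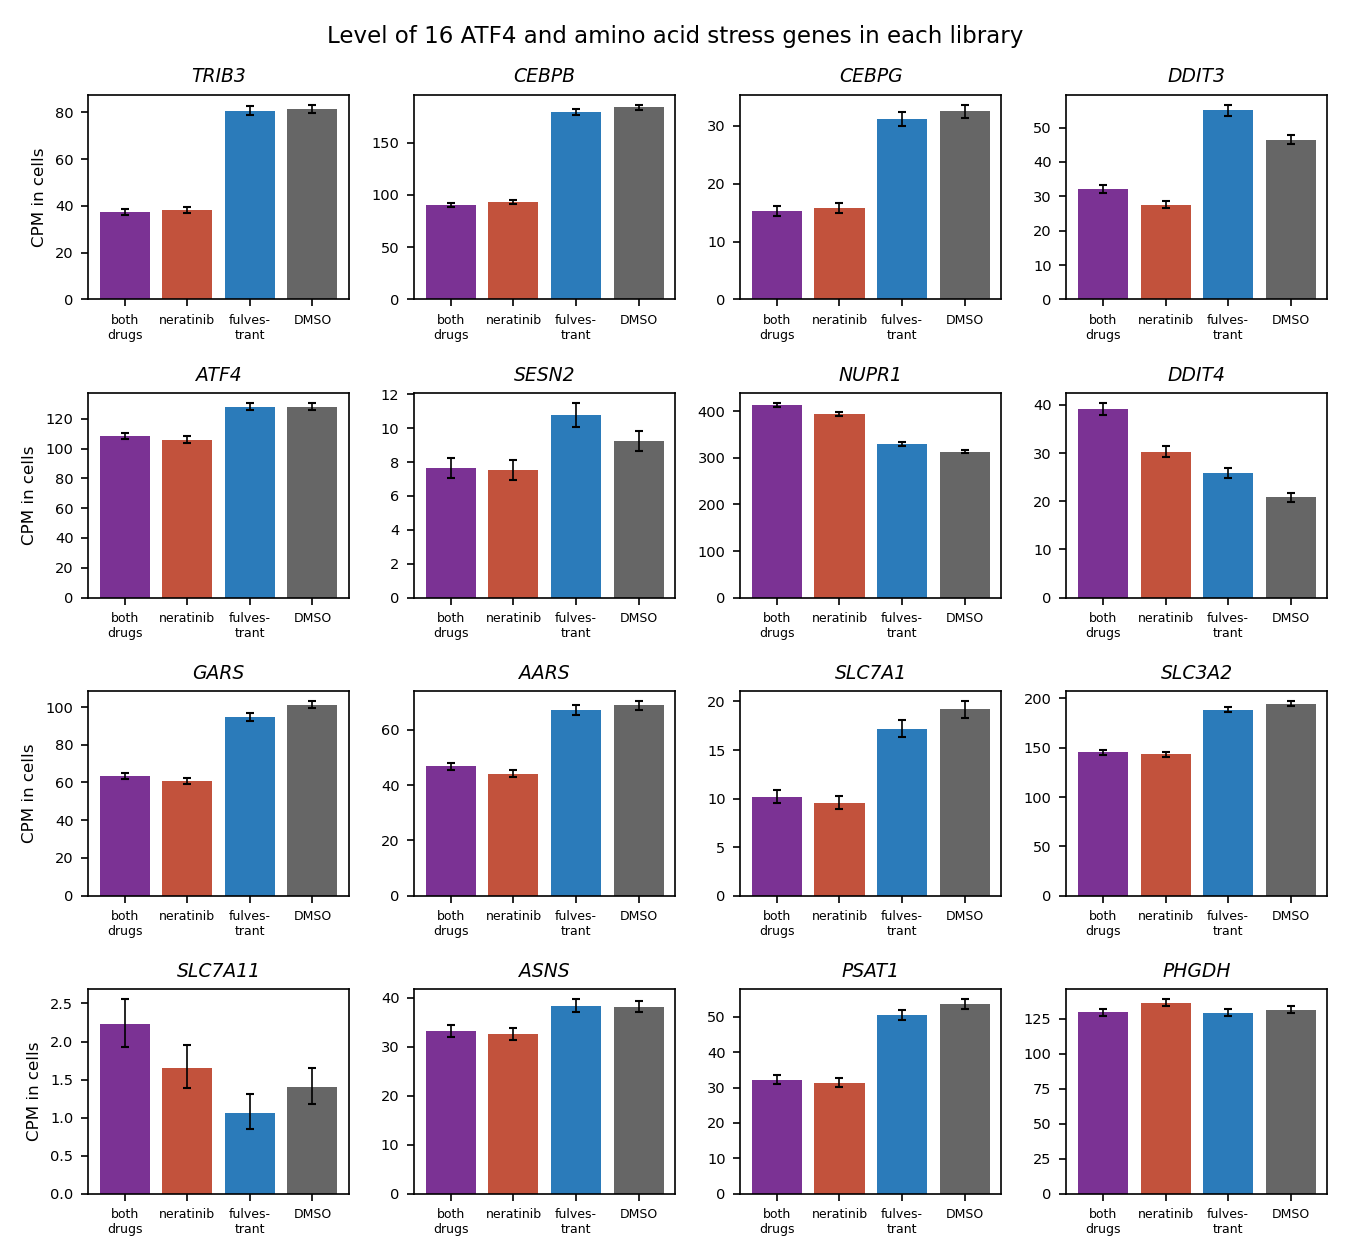
CPM of 16 members in each library (bars; whiskers are 95% counting intervals), with each gene on its own axis from 0. TRIB3, CEBPB and CEBPG stand at about the same low level in both libraries with neratinib, PHGDH is alike in all 4, and NUPR1 and DDIT4 are higher in the libraries with neratinib.

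The remaining effectors divided. EIF4EBP1, the translation repressor that mTORC1 inactivates, had 60.7 CPM with both drugs, 60.4 with neratinib, 84.0 with fulvestrant and 90.3 with DMSO, a ratio of −0.58 [−0.63, −0.53] for neratinib against DMSO. VLDLR, a lipoprotein receptor, was scarce at 0.99 CPM with both drugs, 1.02 with neratinib, 1.88 with fulvestrant and 1.79 with DMSO, and its ratio was −0.80 [−1.19, −0.42]. SESN2, a leucine sensor upstream of mTORC1, had 7.63 CPM with both drugs, 7.52 with neratinib, 10.8 with fulvestrant and 9.23 with DMSO. Its ratio was past the size on top of fulvestrant (−0.50 [−0.64, −0.35]) and short of it against DMSO (−0.30 [−0.44, −0.15]). CHAC1, a glutathione-degrading enzyme, rested on 56 UMIs with both drugs, 33 with neratinib, 119 with fulvestrant and 139 with DMSO, and its ratio of −1.77 [−2.36, −1.21] for neratinib against DMSO is given without a call.

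A pair of effectors ran the other way. NUPR1, a small stress-induced chromatin protein, had 414.2 CPM with both drugs, 394.8 with neratinib, 329.9 with fulvestrant and 313.8 with DMSO. It was 1.26-fold higher with neratinib in each pair (0.33 [0.31, 0.35] both times). DDIT4 (REDD1), an inhibitor of mTORC1, had 39.1 CPM with both drugs, 30.3 with neratinib, 25.9 with fulvestrant and 20.8 with DMSO. Adding neratinib went with a higher level, by 0.60 [0.52, 0.68] on top of fulvestrant and 0.54 [0.46, 0.63] against DMSO. Adding fulvestrant did too, by 0.37 [0.30, 0.44] on top of neratinib and 0.32 [0.23, 0.40] against DMSO, the last just short of the size called. With both drugs DDIT4 stood 1.88-fold above DMSO. Among cells with at most 20% mitochondrial UMIs, the neratinib ratios against DMSO were 0.28 for NUPR1 and 0.30 for DDIT4, short of the size called, and DDIT4 was called for fulvestrant at 0.38.

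All 5 genes of tRNA charging and export were lower with neratinib in both pairs. GARS, the glycyl-tRNA synthetase, had 63.5 CPM with both drugs, 60.9 with neratinib, 94.5 with fulvestrant and 101.2 with DMSO (−0.73 [−0.78, −0.68] for neratinib against DMSO). AARS, the alanyl-tRNA synthetase, had 46.8 CPM with both drugs, 44.2 with neratinib, 67.3 with fulvestrant and 68.9 with DMSO (−0.64 [−0.70, −0.58]). The exportin XPOT, which carries tRNA out of the nucleus, was at −0.57 [−0.63, −0.52], the seryl-tRNA synthetase SARS at −0.47 [−0.53, −0.41] and the tryptophanyl-tRNA synthetase WARS at −0.46 [−0.58, −0.34]. On top of fulvestrant the 5 ratios ran between −0.57 and −0.35. Among cells with at most 20% mitochondrial UMIs, WARS lost its call against DMSO (−0.23), and WARS (−0.16), XPOT (−0.24) and SARS (−0.25) lost it on top of fulvestrant. Their summed level was 204.3 CPM with both drugs, 197.2 with neratinib, 287.7 with fulvestrant and 301.9 with DMSO.

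Of the 5 transporters, 4 were lower with neratinib against DMSO. SLC7A1, the carrier of arginine and other cationic amino acids, had 10.2 CPM with both drugs, 9.55 with neratinib, 17.2 with fulvestrant and 19.2 with DMSO (−1.01 [−1.13, −0.89], 2.01-fold). SLC1A5, a carrier of glutamine and other neutral amino acids, had 36.4 CPM with both drugs, 36.0 with neratinib, 48.1 with fulvestrant and 51.5 with DMSO (−0.52 [−0.58, −0.45]). SLC3A2, the heavy chain that brings several light chains to the membrane, had 145.2 CPM with both drugs, 143.4 with neratinib, 188.7 with fulvestrant and 194.7 with DMSO (−0.44 [−0.47, −0.41]). Its partner SLC7A5 (LAT1), the carrier of leucine and other large neutral amino acids, had 25.8 CPM with both drugs, 29.7 with neratinib, 32.2 with fulvestrant and 39.8 with DMSO. For SLC7A5 every drug library was below DMSO, at −0.42 [−0.50, −0.35] for neratinib, −0.30 [−0.37, −0.23] for fulvestrant (1.23-fold, under the size called) and −0.62 [−0.70, −0.55] for both drugs. Among cells with at most 20% mitochondrial UMIs the ratio of SLC7A5 for neratinib against DMSO was −0.31, and those of SLC3A2 and SLC1A5 on top of fulvestrant were −0.27 and −0.21, all short of a call. Among cells under 15% the sign of SLC7A5 turned, at 0.29 [0.02, 0.55] for neratinib against DMSO.

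SLC7A11, the cystine carrier that pairs with the same heavy chain, was scarce and did not follow the other transporters. It rested on 203 UMIs with both drugs, 137 with neratinib, 89 with fulvestrant and 144 with DMSO, or 2.23 CPM with both drugs, 1.65 with neratinib, 1.06 with fulvestrant and 1.40 with DMSO. The level was highest with both drugs and lowest with fulvestrant. For fulvestrant against DMSO, SLC7A11 was the 1 member called lower and 0 were higher, where 1.80% of all genes were lower and 1.23% higher, at −0.40 [−0.80, −0.01]. For both drugs against neratinib, 0 members were lower and 2 higher, SLC7A11 (0.43 [0.11, 0.76]) and DDIT4 (0.37 [0.30, 0.44]), where 2.00% of all genes were lower and 1.57% higher. The SLC7A11 ratio for both drugs against fulvestrant was 1.07 [0.70, 1.44]. The fulvestrant call against DMSO was lost without the 5% of cells with the most UMIs in each library (−0.38), among cells with at most 20% mitochondrial UMIs (−0.36) and over non-mitochondrial UMIs (−0.39).

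The serine synthesis enzymes mostly stayed short of the size called. PSAT1, the transaminase of the pathway, was the exception, with 32.2 CPM with both drugs, 31.4 with neratinib, 50.4 with fulvestrant and 53.5 with DMSO (−0.77 [−0.84, −0.70] for neratinib against DMSO, −0.65 [−0.72, −0.58] on top of fulvestrant). PHGDH, the first enzyme of serine synthesis, had 129.5 CPM with both drugs, 136.4 with neratinib, 129.3 with fulvestrant and 131.5 with DMSO. PSPH, the last enzyme, had 38.6 CPM with both drugs, 38.6 with neratinib, 41.8 with fulvestrant and 43.0 with DMSO. Thus the middle enzyme differed by 1.71-fold while the enzymes before and after it differed by 1.04-fold and 1.11-fold for neratinib against DMSO.

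In the mitochondrial one-carbon branch, SHMT2, which splits serine to glycine and a folate-bound carbon, had 62.2 CPM with both drugs, 63.5 with neratinib, 56.0 with fulvestrant and 57.5 with DMSO. MTHFD2, the next enzyme, had 95.4 CPM with both drugs, 89.8 with neratinib, 95.5 with fulvestrant and 96.9 with DMSO. The neratinib ratios against DMSO were 0.15 [0.09, 0.20] for SHMT2 and −0.11 [−0.15, −0.07] for MTHFD2, both above the median gene and short of a call. ALDH1L2, a mitochondrial folate dehydrogenase, had 15 UMIs with both drugs, 12 with neratinib, 6 with fulvestrant and 8 with DMSO, too few for a difference to be detectable at this depth.

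ASNS, the asparagine synthetase and a classical ATF4 target, had 33.2 CPM with both drugs, 32.6 with neratinib, 38.4 with fulvestrant and 38.2 with DMSO (−0.23 [−0.30, −0.16] for neratinib against DMSO, close to the median gene). The alanine transaminase GPT2 had 7.25 CPM with both drugs, 6.91 with neratinib, 8.25 with fulvestrant and 8.86 with DMSO, with a call for neratinib against DMSO (−0.36 [−0.51, −0.21]; −0.26 and no call under median-of-ratios scaling) and none on top of fulvestrant (−0.19 [−0.34, −0.03]). PCK2, which makes PEP in mitochondria, had 43.2 CPM with both drugs, 45.2 with neratinib, 49.2 with fulvestrant and 48.0 with DMSO (−0.09 [−0.15, −0.02]). In this group 1 of 3 members was lower against DMSO and 0 of 3 on top of fulvestrant, beside 33.3% and 32.4% of all genes.

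For most members the double treatment lay near the sum of the single log2 ratios. The departure from additivity (log2 of both drugs minus fulvestrant minus neratinib plus DMSO) had a median of 0.08 over the 30 members and 0.01 over all 12136 measured genes. A departure of at least 0.32 with its interval off 0, counted among measured genes only, was seen for 1 of the 28 measured members and for 3.39% of all genes. That member was SLC7A11, at 0.83 [0.34, 1.33]. The next greatest among measured members was SLC7A1 at 0.25 [0.09, 0.42], while TRIB3 (−0.02), CEBPB (−0.02), CEBPG (0.00) and NUPR1 (0.00) lay near 0.

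**Figure D3:**
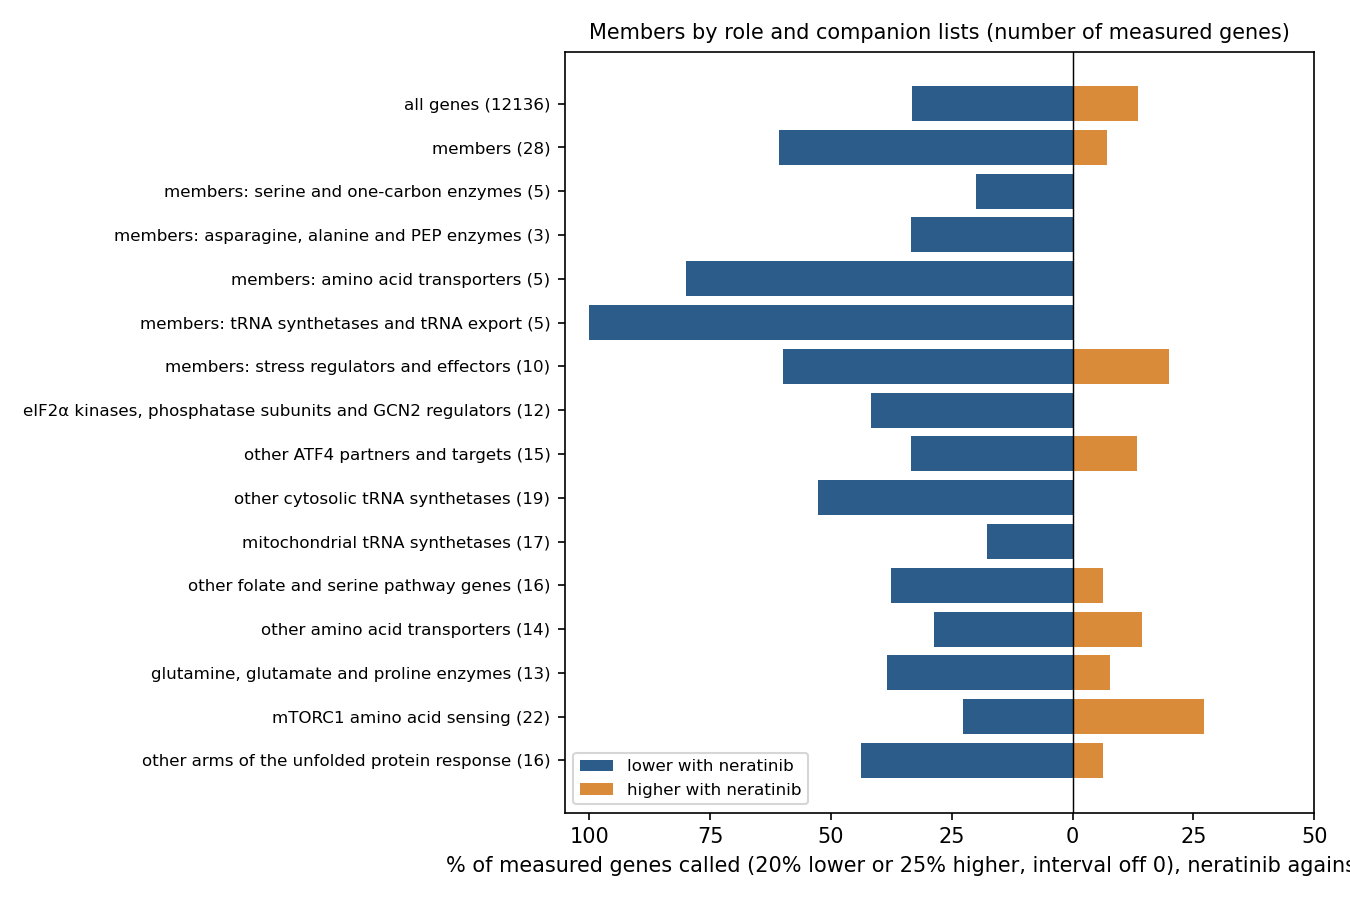
Share of measured genes called lower (left of 0) or higher (right) for neratinib against DMSO, in all genes, the members, the members by role and 9 companion lists, with the number of measured genes in parentheses. The tRNA genes reach 5 of 5 lower, the mitochondrial synthetases 3 of 17, and the mTORC1 sensing list has 6 of 22 higher and 5 lower. Of all genes, 33.3% are lower and 13.6% higher.

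Companion lists of the same pathways were read beside the members, with the counts of all genes above as background. Of 19 other cytosolic tRNA synthetases and their complex subunits, 10 were lower and 0 higher for neratinib against DMSO (median −0.35), and with fulvestrant present the counts were 8 and 0 (median −0.22). The named ones were the complex subunits AIMP2 (26.4 CPM with neratinib, 60.9 with DMSO, −1.21 [−1.28, −1.14]) and EEF1E1 (−0.97), the tyrosyl-tRNA synthetase YARS (−0.997) and the phenylalanyl subunit FARSA (−0.82). Among 17 mitochondrial synthetases the counts were 3 lower and 0 higher, and their median of −0.04 lay above the median gene. The 3 were MARS2 (−1.37 [−1.70, −1.04]), EARS2 (−0.52) and HARS2 (−0.43).

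Genes upstream of ATF4 were read next. Of 12 genes for eIF2α kinases, phosphatase subunits and GCN2 regulators, 5 were lower and 0 higher in each neratinib pair. Of all genes, 33.3% were lower against DMSO and 32.4% on top of fulvestrant. EIF2S1, which encodes eIF2α itself, had 76.7 CPM with both drugs, 78.3 with neratinib, 124.6 with fulvestrant and 127.8 with DMSO (−0.71 [−0.75, −0.66] against DMSO). EIF2AK4, which encodes GCN2, was at −0.58 [−0.64, −0.51], EIF2AK2 (PKR) at −0.49 [−0.55, −0.42], and OMA1, a mitochondrial protease that relays stress to HRI, at −0.36 [−0.48, −0.24]. Of 16 genes of the other arms of the unfolded protein response, 7 were lower and 1 higher against DMSO. The chaperone cofactor SDF2L1 had 21.1 CPM with neratinib and 51.9 with DMSO (−1.29 [−1.37, −1.22]), and XBP1, the factor of the IRE1 arm, 299.4 CPM with neratinib and 466.4 with DMSO (−0.64 [−0.66, −0.62]).

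Other partners and targets of ATF4 did not move as one. Of 15 measured, 5 were lower and 2 higher for neratinib against DMSO, near the 33.3% of all genes lower and 13.6% higher. The median of the 15 was 0.00, beside −0.16 over all measured genes. The stress cytokine GDF15 had 2.14 CPM with both drugs, 1.95 with neratinib, 6.97 with fulvestrant and 6.46 with DMSO (−1.73 [−1.98, −1.48]). JDP2, a leucine zipper repressor, was at −1.14 [−1.27, −1.02], and STC2, a secreted glycoprotein and also an estrogen receptor target, at −1.02 [−1.15, −0.89]. KLHL24, a ubiquitin ligase adaptor, had 116.3 CPM with both drugs, 106.6 with neratinib, 24.2 with fulvestrant and 22.7 with DMSO (2.23 [2.17, 2.30]).

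Amino acid handling outside the set also divided by gene. For neratinib against DMSO, 33.3% of all genes were lower and 13.6% higher, and the counts in this paragraph are read beside that. Of 13 enzymes of glutamine, glutamate and proline, 5 were lower and 1 higher. GLUL, the glutamine synthetase, had 43.3 CPM with both drugs, 46.5 with neratinib, 13.7 with fulvestrant and 14.8 with DMSO (1.65 [1.56, 1.74]), while the proline enzymes PYCR3 and PYCR1 were at −1.06 and −0.58. Of 14 other transporters 4 were lower and 2 higher. The lower ones were the mitochondrial glutamate carrier SLC25A22 (−1.17 [−1.37, −0.98]), SLC7A6 (−0.76), SLC1A4 (−0.52) and SLC36A1 (−0.49). SLC38A2 ran the other way, with 63.8 CPM with neratinib and 46.7 with DMSO, and 0.70 [0.64, 0.76] for both drugs against fulvestrant. Of 16 other folate and serine genes 6 were lower and 1 higher, led by the folate carrier SLC25A32 (−0.97 [−1.16, −0.80]) and FPGS (−0.86), which keeps folates in the cell, then MAT2A (−0.69) and MTHFD1L (−0.49).

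For neratinib against DMSO, the mTORC1 amino acid sensing list had 6 of 22 genes higher and 5 lower. On top of fulvestrant it had 6 higher and 3 lower. Of all genes, 13.6% were higher and 33.3% lower against DMSO, and 13.8% and 32.4% on top of fulvestrant. The median of the list against DMSO was −0.07, and its lowest ratio was −0.64. The 4 genes of greatest absolute ratio against DMSO, all of them higher, are named. The 4 named were CASTOR2, a relative of the arginine sensor (1.60 [1.21, 2.00]), the sestrin SESN3 (1.16 [0.89, 1.42]), TSC1, a subunit of the complex that restrains mTORC1 (0.87 [0.78, 0.96]), and FLCN, which acts on the Rag GTPases (0.79 [0.67, 0.92]). FLCN had 16.8 CPM with both drugs, 15.6 with neratinib, 9.84 with fulvestrant and 8.98 with DMSO.

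Because the mitochondrial share was higher in both neratinib libraries, the ratios were also read among cells of like share. The bins under 15%, 15 to 20%, 20 to 25% and 25% or more held 128, 1188, 1624 and 567 neratinib cells and 1401, 2270, 460 and 170 DMSO cells. For neratinib against DMSO, 11, 14, 17 and 10 members were lower and 2, 1, 0 and 4 higher in the bins in that order. The members' median log2 ratios were −0.28, −0.32, −0.37 and −0.26, beside −0.10, −0.11, −0.10 and −0.03 over all measured genes. The share of all genes called was not counted within bins or phases. TRIB3 stood at −0.99, −0.87, −0.95 and −0.94 in the same order, close to its ratio over all cells. CEBPB stood at −0.67, −0.75, −0.95 and −0.82, and GARS at −0.56, −0.59, −0.74 and −0.45. NUPR1 was above 0 in each bin (0.34, 0.26, 0.23 and 0.82), and DDIT4 ran from 0.15 [−0.03, 0.34] in the 20 to 25% bin to 0.76 [0.36, 1.18] in the bin of 25% or more.

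On top of fulvestrant the bins were less alike. Members lower numbered 6, 11, 17 and 7 and members higher 4, 2, 1 and 7 over the same bins for both drugs against fulvestrant, with medians of 0.00, −0.18, −0.40 and 0.06. The medians over all measured genes were −0.10, −0.09, −0.08 and 0.02. The members' median thus lay above that of all genes under 15% and at 25% or more. TRIB3 was at −0.20 [−0.39, −0.02] in cells under 15%, a bin with 168 cells of both drugs and 957 of fulvestrant, and at −1.30 [−1.43, −1.16] in the 20 to 25% bin. In cells under 15% the ratios of DDIT3 (0.10), WARS (0.30), XPOT (0.11) and VLDLR (0.64) lay above 0 with intervals that hold 0. In cells of 25% or more those of PSAT1 (0.04), SARS (0.37) and SESN2 (0.55) did likewise, and EIF4EBP1 turned to 0.33 [0.03, 0.65]. The ratio of the members in this pair therefore varied with the mitochondrial share of the cells compared, and the part of that share in it was not tested.

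**Figure D4:**
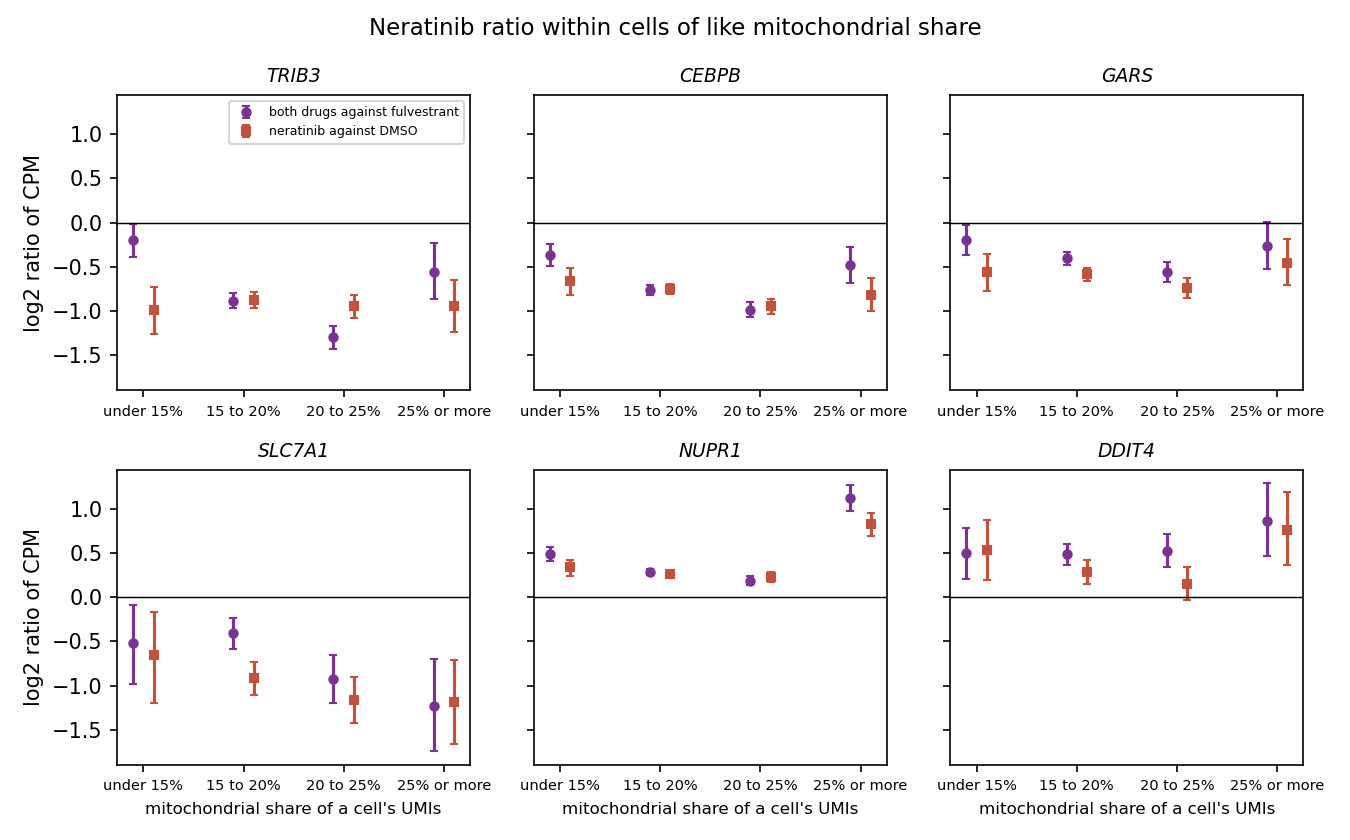
Log2 ratio of CPM (y axis; whiskers are 95% counting intervals) of 6 members within 4 bins of the mitochondrial share of a cell's UMIs (x axis), for both drugs against fulvestrant (circles) and neratinib against DMSO (squares). TRIB3, CEBPB, GARS and SLC7A1 lie below 0 and NUPR1 above 0 in every bin of the neratinib against DMSO pair.

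By cell cycle score, 18, 16 and 17 members were lower and 1, 2 and 0 higher for neratinib against DMSO in cells scored G1, S and G2M. The members' medians were −0.47, −0.46 and −0.41, beside −0.15, −0.20 and −0.16 over all measured genes. TRIB3 was at −1.08, −0.90 and −1.19 and CEBPB at −0.87, −0.87 and −1.16 in that order of phases. DDIT4 differed among the phases, at 0.53 [0.43, 0.64] in G1, 1.17 [0.93, 1.42] in S and −0.03 [−0.22, 0.17] in G2M. Phase calls were not checked against DNA content, and free RNA can enter them.

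Droplets without a cell (barcodes with at most 100 UMIs) carried the members at levels near those in cells. TRIB3 had 48.0 CPM there with both drugs, 48.9 with neratinib, 85.2 with fulvestrant and 98.7 with DMSO, and CEBPB had 93.7 CPM with both drugs, 115.2 with neratinib, 181.5 with fulvestrant and 191.5 with DMSO. Their neratinib ratios against DMSO in these droplets were −1.01 [−1.26, −0.77] and −0.73 [−0.90, −0.57]. For these genes free RNA differed between the libraries in the same direction as the cells, while ASNS (0.08 [−0.20, 0.37]) and GPT2 (0.07 [−0.60, 0.73]) lay near 0 in the droplets. The part of free RNA in the shares of cells below was not tested.

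After each cell was thinned to 5000 UMIs, the lower levels appeared as fewer cells with a UMI. With so few UMIs of a gene per cell, such a share largely follows the mean level. It cannot tell fewer cells with the transcript from a lower level in all cells. TRIB3 was found in 14.4% of cells with both drugs, 15.4% with neratinib, 31.1% with fulvestrant and 31.9% with DMSO. CEBPB was found in 30.2% with both drugs, 31.4% with neratinib, 54.3% with fulvestrant and 55.0% with DMSO. CEBPG was found in 6.86% with both drugs, 7.78% with neratinib, 14.1% with fulvestrant and 15.2% with DMSO. The 30 members together had a median of 7 UMIs per cell in both libraries with neratinib and 9 in both without. With all UMIs of each cell kept, at median depths of 22007 to 23010 UMIs, the share for PSAT1 was 43.8% with both drugs, 43.3% with neratinib, 60.9% with fulvestrant and 61.8% with DMSO, and after thinning it was 14.0% with both drugs, 13.4% with neratinib, 21.3% with fulvestrant and 22.0% with DMSO. No cell type without these genes was present to set a background share.

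**Figure D5:**
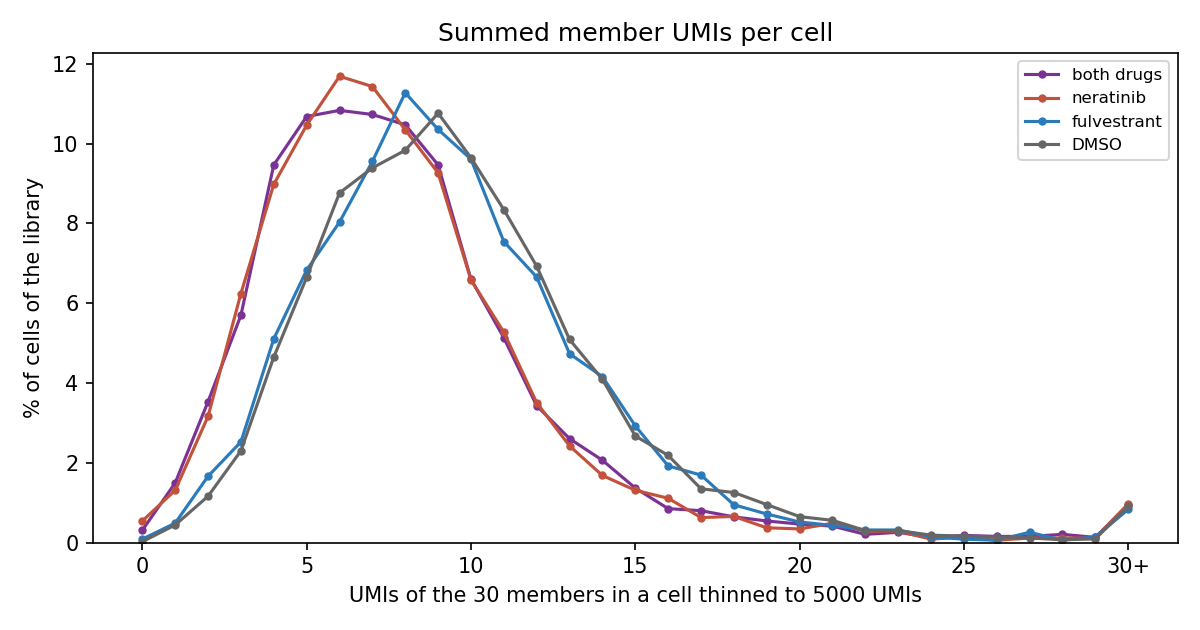
Share of cells (y axis, %) by the number of UMIs of the 30 members in a cell thinned to 5000 UMIs (x axis; the last point holds cells with 30 or more), 1 line per library. The libraries with neratinib peak at lower values, and each library has a small last point of 0.832% to 0.969% of its cells.

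A small tail of cells carried far more of these transcripts than the rest, in every library. Cells with at least 30 member UMIs of 5000, a limit chosen after the distribution was seen, numbered 37 of 3876 with both drugs (0.955% [0.673, 1.31]), 34 of 3507 with neratinib (0.969% [0.672, 1.35]), 29 of 3485 with fulvestrant (0.832% [0.558, 1.19]) and 39 of 4301 with DMSO (0.907% [0.646, 1.24]). The shares lay within each other's intervals, while the median of all cells was lower with neratinib. These cells held 3.28% to 4.44% of the member UMIs of their library. They were not deeper than the rest of the same library, with medians of 20841 UMIs against 22018 with both drugs, 21029.5 against 22265 with neratinib, 20602 against 23042 with fulvestrant and 18350 against 22601 with DMSO. Their median mitochondrial share was lower than that of the rest in each library, at 17.8% against 21.1% with both drugs, 19.5% against 21.1% with neratinib, 15.4% against 16.7% with fulvestrant and 14.9% against 16.3% with DMSO.

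DDIT3, CEBPB, TRIB3, ASNS and SLC3A2 had a greater part of their UMIs in the tail than PHGDH and MTHFD2 had. Of all DDIT3 UMIs, 14.4% lay in the tail cells with both drugs, 18.7% with neratinib, 9.89% with fulvestrant and 9.51% with DMSO. For CEBPB the shares were 10.1% with both drugs, 9.38% with neratinib, 3.96% with fulvestrant and 5.66% with DMSO. TRIB3 had 9.27% with both drugs, 10.9% with neratinib, 4.53% with fulvestrant and 4.98% with DMSO. For DDIT3, CEBPB and TRIB3 the share was greater in both libraries with neratinib than in both without. For ASNS the shares were 8.05% with both drugs, 6.06% with neratinib, 5.32% with fulvestrant and 8.77% with DMSO, and for SLC3A2 5.55% with both drugs, 6.86% with neratinib, 5.56% with fulvestrant and 4.67% with DMSO. PHGDH had 2.40% with both drugs, 2.14% with neratinib, 1.66% with fulvestrant and 2.11% with DMSO of its UMIs there, and MTHFD2 had 2.92% with both drugs, 1.80% with neratinib, 1.63% with fulvestrant and 1.40% with DMSO. Since the members' own sum chose these cells, the shares are a description.

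Cells were also chosen by DDIT3 alone. With at least 3 DDIT3 UMIs of 5000, also a limit set after the values were seen, there were 30 cells with both drugs (0.774%), 16 with neratinib (0.456%), 40 with fulvestrant (1.15%) and 36 with DMSO (0.837%). The mean sum of the other 29 members in these cells, set against the rest of the same library, was 26.4 UMIs against 7.80 with both drugs, 28.6 against 7.77 with neratinib, 20.6 against 9.22 with fulvestrant and 24.8 against 9.48 with DMSO. In 22 of the 29 the ratio to the rest was above 0 in all 4 libraries, and in 9 the interval was also off 0 in all 4: ASNS, ATF4, CEBPB, CEBPG, GARS, NUPR1, SARS, SLC3A2 and TRIB3. The share of all genes with such ratios was not counted, so neither count has a background. The cells chosen by DDIT3 also had a lower median mitochondrial share than the rest in each library. The part of that share in these ratios was not tested. For SLC3A2 the log2 ratio was 2.52 with both drugs, 2.23 with neratinib, 2.18 with fulvestrant and 2.44 with DMSO. For PHGDH it was 0.56 with both drugs, 0.82 with neratinib, 0.27 with fulvestrant and 0.39 with DMSO. CYP1A1, a xenobiotic enzyme and no member, was also more frequent in the cells with 30 or more member UMIs than in the rest, with means of 1.11 UMIs against 0.0823 with both drugs, 0.882 against 0.0682 with neratinib, 1.28 against 0.0749 with fulvestrant and 0.897 against 0.0596 with DMSO.

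Correlations between members across single cells were low, which at such sparse counts does not show how closely the genes are tied. The Pearson correlation over thinned cells had a median over the 435 pairs of 0.035 with both drugs, 0.033 with neratinib, 0.023 with fulvestrant and 0.021 with DMSO, values that sparse counts keep low. DDIT3 with CEBPB was the highest pair, at 0.32 with both drugs, 0.44 with neratinib, 0.19 with fulvestrant and 0.25 with DMSO (3876, 3507, 3485 and 4301 cells that share a library). SLC3A2 with DDIT3 followed at 0.29 with both drugs, 0.24 with neratinib, 0.31 with fulvestrant and 0.29 with DMSO. SLC3A2 with CEBPB had 0.27 with both drugs, 0.26 with neratinib, 0.19 with fulvestrant and 0.24 with DMSO, and CEBPB with TRIB3 had 0.34 with both drugs, 0.23 with neratinib, 0.13 with fulvestrant and 0.18 with DMSO. The summed member count went down with the mitochondrial share of the cell, at r of −0.19 with both drugs, −0.17 with neratinib, −0.19 with fulvestrant and −0.18 with DMSO. Outside the set, the 10 genes with the highest mean correlation with the member sum were EIF1, KRT18, CHCHD2, H2AFZ, PSMB3, EIF6, CCT5, RAN, RPL19 and KRT7, with means of 0.16 to 0.23 over the 4 libraries among 4923 genes of at least 20 CPM.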

How the data were processed

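The deposited values were UMI counts of 33538 genes in unfiltered barcodes. The submitters' processing notes name Cell Ranger 3.1.0 and hg19. The sources used here do not give whether reads were evened between libraries. Each barcode ends in a library number, which was taken as the number that opens the sample title. The members and all gene lists were chosen with earlier results of these data known.

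Barcodes with at least 5000 UMIs and 500 genes were taken as cells, with no mitochondrial ceiling and with doublets kept. Counts were summed per library and scaled to CPM by the library's cell UMIs. Ratios were computed for 5 pairs over all genes and read where the mean was at least 1 CPM (12136 genes). Per-sample columns left unmapped numbered 0. All members were named, with up to 4 genes of greatest ratio per companion list and 10 correlated genes, and some of these values are not reported here. Python 3.11.15 was used with numpy 2.4.6, scipy 1.17.1 and pandas 2.3.3, and scanpy 1.11.5 scored phases. The ratio step was tested on simulated counts. Alternatives were a mitochondrial ceiling of 20%, a UMI minimum set per library, removal of the 5% deepest cells, other scalings, a fold of 1.5, and a minimum of 10 CPM or none.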

Additional observations from a re-analysis of the deposited data

Results flagged for a closer look

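SLC7A11 was called in opposite directions by fulvestrant, at −0.40 alone against DMSO and 0.43 on top of neratinib. The difference was not tested. The call against DMSO was lost among cells with at most 20% mitochondrial UMIs (−0.36), over non-mitochondrial UMIs (−0.39) and without the 5% of cells with the most UMIs (−0.38). The 4 libraries held 203 UMIs of the gene with both drugs, 137 with neratinib, 89 with fulvestrant and 144 with DMSO.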

How the results depend on the processing

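No paired analysis was possible because each group has 1 library, so no group shares more than 1 replicate number with another. No called member ratio changed sign under the alternatives run, although some did within bins of the mitochondrial share. With at most 20% mitochondrial UMIs per cell, 0 members were higher for neratinib against DMSO, beside 13.6% of all genes. For fulvestrant against DMSO 0 were lower and 1 higher, beside 1.85% and 1.24% of all genes. CPM over non-mitochondrial UMIs gave 0 lower and 1 higher for fulvestrant against DMSO, beside 1.79% and 1.51% of all genes. Without the 5% of cells with the most UMIs, 0 were lower for fulvestrant against DMSO, beside 1.91% of all genes. With a mean of at least 10 CPM, 0 were lower for that pair (0.98% of all genes). That minimum left 1 higher for both drugs against neratinib (0.19% of all genes). At a fold of 1.5, 9 were lower and 0 higher for neratinib against DMSO, beside 15.1% and 7.03% of all genes. For both drugs, 8 were lower against DMSO (15.7% of all genes) and 7 lower against fulvestrant (14.6%). At that fold 0 were lower for fulvestrant against DMSO (0.57%) and 0 higher for both drugs against neratinib (0.058%). All other counts stayed within 1.5 times. For both drugs against fulvestrant, the 16 lower members became 12 under median-of-ratios scaling (25.5% of all genes). They became 11 with at most 20% mitochondrial UMIs (27.9% of all genes). Median-of-ratios scaling moved the median gene for neratinib against DMSO to −0.06 and the members' median to −0.35, with 16 members lower beside 25.1% of all genes lower and 17.8% higher. The cause of these shifts was not tested. One library per group leaves the spread between cultures unknown, and SLC7A11, VLDLR, CHAC1 and ALDH1L2 are limited by depth.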
